A study of Mus musculus with 6 samples.

Results

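The 9 genes of the transcriptional response to neuronal activity described here in mouse prefrontal cortex are the zinc finger factors Egr1, Egr2, Egr3 and Egr4, the corepressors Nab1 and Nab2, and the orphan nuclear receptors Nr4a1, Nr4a2 and Nr4a3. They were chosen by symbol as the members of these 3 families, and all 9 were found among the 45470 named genes of the count table. RNA of prefrontal cortex homogenate at postnatal week 8 was sequenced in 3 libraries of mice heterozygous for the 16p11.2 duplication and 3 libraries of wild type mice. In people this copy number gain is linked to autism and schizophrenia, and the mouse line carries a gain of the matching segment. The line was founded on a hybrid of C57BL/6N and 129Sv, and 10 generations of backcrossing to C57BL/6 followed. The labels give no other allele or treatment, and do not say whether a library holds 1 animal or a pool, so the p-values below reflect only how these libraries vary.

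EGR proteins bind GC-rich DNA through zinc fingers, and their genes are transcribed within minutes of synaptic activity through calcium and ERK signalling, which acts on SRF with its ELK partners and on CREB. NAB proteins bind EGR1, EGR2 and EGR3 and repress their targets. NAB genes are themselves described as EGR targets, which makes a negative feedback loop. NR4A receptors act without a known natural ligand, bind the NBRE element as monomers, and are induced by cAMP and calcium signals. NR4A1 and NR4A2 can also pair with retinoid X receptors. In cortex Egr1 is widely used as a marker of recent neuronal activity, and Nr4a2 also marks particular deep neurons of layer 6b and the claustrum.

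Total gene counts were 14891890 to 21872271 in the duplication libraries and 12988457 to 14369271 in the wild type libraries. Gene names in the authors' table sit on the wrong lines from partway down, so all values use names moved back to their counts. The 23 tested genes of the duplicated segment had a median fold of 1.51, 2.03 and 1.52 in duplication replicates 1 to 3 over the wild type mean, so replicate 2 stood apart from the other duplication libraries. Counts of Xist and of Y-linked genes put replicate 1 of each group in one sex and replicates 2 and 3 in the other. Replicate 2 of each group also held Y-linked counts, with 77 Ddx3y counts beside 2090 of Xist in the duplication library and 71 beside 2130 in the wild type library. All 8 excitatory neuron markers of cortex passed the filter on low counts, and the summed level of the markers was 2171 to 2294 CPM (read counts scaled to a common library size, with TMM factors) in duplication libraries and 2157 to 2712 CPM in wild type libraries. All 4 Schwann cell markers, checked because Egr2 is the myelin factor of peripheral nerve, were below the filter, with Pmp2 at 0. In tissue RNA, fewer cells of a type and less RNA per cell cannot be told apart.

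The start regions of 4 members with lower estimates and of the corepressor Nab2 are shown because elements for CREB and SRF are the textbook route to these genes. Windows of 250 bases directly before a transcription start came from a table of RefSeq start sites on build GRCm38.p6, in which 7 of the 9 members were matched; Egr1 and Egr3 are named only. Egr2 has 5 windows in that table for its several starts, and the one shown is the nearest to the start shared by most of its transcripts that holds no annotated exon base. Capitals mark matches on either strand to the CRE half-site TGACG, the CArG box of SRF, the EGR site GCGTGGGCG or its variant GCGGGGGCG, and TATAAA. The windows lie at chr10:67537619-67537868 on the plus strand for Egr2, chr6:85513590-85513839 on the minus strand for Egr4, chr15:101266596-101266845 on the plus strand for Nr4a1, chr2:57124004-57124253 on the minus strand for Nr4a2 and chr10:127666704-127666953 on the minus strand for Nab2.
Egr2: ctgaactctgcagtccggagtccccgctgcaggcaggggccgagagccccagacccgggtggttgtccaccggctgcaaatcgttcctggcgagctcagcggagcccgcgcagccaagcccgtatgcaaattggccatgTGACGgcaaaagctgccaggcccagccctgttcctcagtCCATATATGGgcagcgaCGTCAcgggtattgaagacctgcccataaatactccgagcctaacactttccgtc
Egr4: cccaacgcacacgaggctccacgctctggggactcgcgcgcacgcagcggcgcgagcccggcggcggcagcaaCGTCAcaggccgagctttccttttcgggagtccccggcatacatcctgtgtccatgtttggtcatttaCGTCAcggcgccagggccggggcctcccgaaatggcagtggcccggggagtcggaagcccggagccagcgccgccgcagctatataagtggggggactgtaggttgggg
Nr4a1: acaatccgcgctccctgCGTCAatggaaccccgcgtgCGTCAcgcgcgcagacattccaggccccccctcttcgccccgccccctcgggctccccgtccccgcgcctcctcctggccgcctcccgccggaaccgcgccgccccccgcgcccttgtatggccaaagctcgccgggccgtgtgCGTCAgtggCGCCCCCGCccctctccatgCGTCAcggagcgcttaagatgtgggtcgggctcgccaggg
Nr4a2: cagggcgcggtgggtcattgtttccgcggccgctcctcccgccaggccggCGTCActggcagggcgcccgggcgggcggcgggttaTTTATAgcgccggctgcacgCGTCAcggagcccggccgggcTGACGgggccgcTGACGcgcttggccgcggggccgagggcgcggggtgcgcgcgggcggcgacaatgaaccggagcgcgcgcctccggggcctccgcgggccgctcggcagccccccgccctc
Nab2: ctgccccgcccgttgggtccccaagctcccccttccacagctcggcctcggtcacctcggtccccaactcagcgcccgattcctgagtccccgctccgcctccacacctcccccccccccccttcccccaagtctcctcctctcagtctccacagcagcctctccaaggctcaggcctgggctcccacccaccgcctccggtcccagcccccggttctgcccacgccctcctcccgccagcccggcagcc

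The CRE half-site was present in at least 1 window of 6 of the 7 members, as for 19.8% of the 27025 genes outside chromosome 18. It was in 17.8% of the 32851 single windows of those genes. For Egr2 it was in 3 of the 5 windows, and each other member has 1 window. It occurred 4 times each in the windows of Nr4a1, Nr4a2 and Nr4a3, 2 times each in the printed windows of Egr2 and Egr4, and 1 time in that of Nab1. The Nab2 window held none of the searched letters. That window lies inside the annotated gene, which runs from 127660918 to 127668568 on the minus strand. The bases just after it were found in 1 of 4 annotated Nab2 transcripts. The region before the upper end of the gene was not searched. The palindromic CRE TGACGTCA, found in 1.55% of windows, and the NBRE AAAGGTCA, found in 1.34%, had no match in any of the 7. A CArG box, found in 1.47% of windows, lay 63 to 72 bases before the start in the printed Egr2 window. The Nab1 window held 2 copies of the EGR site GCGTGGGCG, which 0.54% of windows hold, and 1 of the variant GCGGGGGCG. The variant, which 2.57% of windows hold, also occurred 1 time in the Nr4a1 window. Annotated exon of the same gene covered 231 bases of the Nab1 window, 152 of the Nr4a3 window and 7 of the Nab2 window. The printed windows of Egr2, Egr4, Nr4a1 and Nr4a2 held 0 such bases. TATAAA, in 12.4% of windows, was matched on the opposite strand 159 to 164 bases before the start of Nr4a2. The windows are rich in G and C, at 61.6% for Egr2, 68.0% for Egr4, 74.4% for Nr4a1, 80.0% for Nr4a2 and 72.8% for Nab2, against a median of 52.4%. A half-site overlapping a full CRE was not counted apart, and a match of letters does not show a bound site.

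The EGR factors and NR4A receptors had lower mean levels in duplication cortex and the NAB corepressors were at nearly the same level in both groups, but no member passed the test over all genes. With edgeR's quasi-likelihood test and Benjamini-Hochberg adjustment, 0 of 9 members and 0% of the 15398 genes tested passed, with a smallest adjusted p of 0.129 for any gene. DESeq2 called 0 of the 9 and 2.01% of the 14201 genes to which it gave an adjusted p, and limma-voom 0 of the 9 and 0% of all genes. At an unadjusted edgeR p under 0.05, 6 of the 9 were lower, namely Egr1, Egr3, Egr4, Nr4a1, Nr4a2 and Nr4a3, against 12.2% of all genes in that direction. DESeq2 also gave 6, with Egr2 in place of Nr4a3, against 10.2% of all genes, and limma-voom gave 6, with Egr2 in place of Nr4a2, against 11.6%. The log2 fold change of duplication over wild type was below 0 for all 9, as for 49% of all genes, and its median was -0.53, against 0.0050 over all genes tested. The groups did not overlap for 3 members, Egr1, Egr3 and Egr4, each lower in duplication, as for 10.5% of all genes. Without wild type replicate 2, edgeR called these 3 members lower, where 10.7% of all genes were called lower, while leaving out any 1 of the 5 other libraries gave 0 called members. Without both libraries numbered 2 it called the same 3, where 7% were called lower. Without a filter on low counts it called Egr1, Egr3, Egr4, Nr4a1 and Nr4a3 lower, where 3.19% were.

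**Figure D1:**
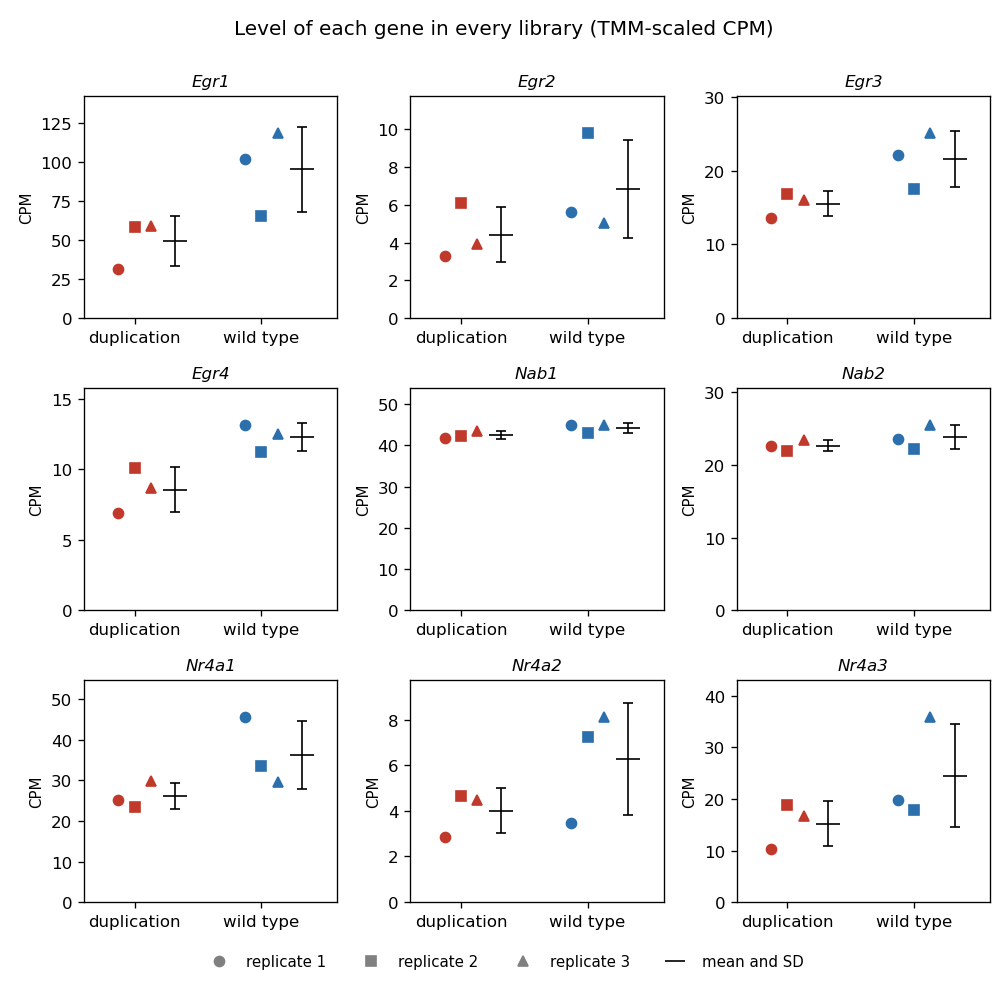
Level of each of the 9 genes in CPM in every library, duplication left and wild type right, with the mean and SD of 3 libraries. Egr1 lay between 31.2 and 59.2 CPM in the duplication libraries and between 65.3 and 119 CPM in the wild type libraries, while Nab1 lay between 41.8 and 45.0 CPM in all 6.

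Egr1, an early factor of synaptic plasticity, showed the lowest fold change of the set. It was at 31.2, 58.1 and 59.2 CPM in duplication replicates 1 to 3, against 102, 65.3 and 119 CPM in wild type replicates 1 to 3. Every duplication library was below every wild type library, though duplication replicate 3 and wild type replicate 2 lay close together and duplication replicate 1 was far below the other 5 libraries. The mean was 49.5 ± 15.9 CPM in duplication and 95.2 ± 27.2 CPM in wild type libraries (SD, n = 3 each). The log2 fold change was -0.95 ± 0.26 (SE), a fold of 0.518, with a 95% interval of -1.54 to -0.35 and an edgeR adjusted p of 0.174. Of all genes tested, 1.75% had a fold change as low or lower. The gene lies on chromosome 18 from 34859823 to 34864984 (mm10) and overlaps no other annotated gene. Without wild type replicate 2 the log2 value was -1.17 with an edgeR adjusted p of 0.00855, and without duplication replicate 1, the lowest library, it was -0.69 with an adjusted p of 0.490. Leaving out the other 4 libraries in turn gave values of -1.10 to -0.76 with edgeR adjusted p of 0.260 to 0.456.

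Egr3, a factor needed for muscle spindles and for some forms of memory, was at 13.6, 16.9 and 16.0 CPM in duplication replicates 1 to 3, against 22.0, 17.5 and 25.1 CPM in wild type replicates 1 to 3. The groups did not overlap, with wild type replicate 2 only just above duplication replicate 2. Its log2 fold change was -0.48 ± 0.14 (edgeR adjusted p = 0.174), with a 95% interval of -0.80 to -0.16. Egr4, a family member largely restricted to neurons and germ cells, was at 6.89, 10.1 and 8.69 CPM in the duplication libraries, against 13.2, 11.3 and 12.5 CPM in the wild type libraries. It was the member with the least spread between wild type libraries among the EGR factors, and its groups did not overlap. Its log2 fold change was -0.53 ± 0.15 (edgeR adjusted p = 0.174), with a 95% interval of -0.87 to -0.20.

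Egr2, also known as Krox20, controls hindbrain segments and peripheral myelin and is induced by activity in cortex. It was at 3.28, 6.08 and 3.90 CPM in duplication replicates 1 to 3, against 5.63, 9.80 and 5.05 CPM in wild type replicates 1 to 3. The groups overlapped, since duplication replicate 2 was above wild type replicates 1 and 3. The log2 fold change was -0.66 ± 0.29, with a 95% interval of -1.33 to 0.0070 and an edgeR adjusted p of 0.262. Without wild type replicate 2 the log2 value was -0.30. Egr2 rested on 62 to 90 counts per duplication library and 69 to 141 per wild type library. The 141 counts of wild type replicate 2 have an exact Poisson 95% interval of 8.25 to 11.6 CPM, above the values of the other 5 libraries, and such intervals cover counting error only.

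The NAB corepressors hardly varied. Nab1, which binds a domain shared by EGR1, EGR2 and EGR3 that represses them, was at 41.8, 42.3 and 43.6 CPM in duplication replicates 1 to 3, against 45.0, 42.9 and 45.0 CPM in wild type replicates 1 to 3. Its log2 fold change was -0.058 ± 0.063, with a 95% interval of -0.20 to 0.083 and an edgeR adjusted p of 0.627. Nab2, the more inducible of the pair, was at 22.6, 21.9 and 23.4 CPM in the duplication libraries, against 23.6, 22.2 and 25.5 CPM in the wild type libraries. Its log2 fold change was -0.070 ± 0.081, with a 95% interval of -0.25 to 0.11 and an edgeR adjusted p of 0.656. The groups of both genes overlapped. Whether their fold changes differ from those of the 7 other members was not tested, and the interval of Egr1 was the one of the 7 that did not overlap those of Nab1 and Nab2. Nab2 shares 40 exon bases with Stat6, 151 with Nemp1 and 1050 with the antisense gene Gm16229, all on the opposite strand, and no source used here gives the strand setting, so its value is uncertain to that extent.

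Nr4a1, also called Nur77, is a receptor induced by activity and stress. It was at 25.1, 23.5 and 29.8 CPM in duplication replicates 1 to 3, against 45.7, 33.6 and 29.6 CPM in wild type replicates 1 to 3. The groups overlapped by a narrow margin, with duplication replicate 3 just above wild type replicate 3. The log2 fold change was -0.47 ± 0.16, with a 95% interval of -0.82 to -0.11 and an edgeR adjusted p of 0.182. Without wild type replicate 1 the log2 value was -0.27.

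Nr4a3, also called Nor1, was at 10.3, 18.8 and 16.6 CPM in duplication replicates 1 to 3, against 19.8, 17.8 and 35.9 CPM in wild type replicates 1 to 3. Wild type replicate 3 stood alone at the top, and the other 5 libraries overlapped. The log2 fold change was -0.70 ± 0.29, with a 95% interval of -1.35 to -0.054 and an edgeR adjusted p of 0.233. It was -0.32 without wild type replicate 3 in edgeR.

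Nr4a2, also called Nurr1, is needed for midbrain dopamine neurons. It was at 2.87, 4.66 and 4.47 CPM in duplication replicates 1 to 3, against 3.49, 7.22 and 8.12 CPM in wild type replicates 1 to 3. Wild type replicate 1 lay among the duplication libraries, so the groups overlapped. The log2 fold change was -0.68 ± 0.30, with a 95% interval of -1.36 to -0.0064 and an edgeR adjusted p of 0.256. Counts were 63 to 71 per duplication library and 44 to 111 per wild type library. Markers of layer 6b and claustrum, averaged, had a log2 level around the 6 libraries of -0.19, -0.21 and -0.20 in duplication replicates 1 to 3 and -0.27, 0.26 and 0.62 in wild type replicates 1 to 3, highest like Nr4a2 in wild type replicates 2 and 3. Of the 6 markers 5 were tested, none was at 0, and they summed to 71.2 to 78.1 CPM in duplication and 71.0 to 110 CPM in wild type libraries. The matrix gene Ctgf, at a log2 fold change of -1.14 ± 0.44, and the complexin gene Cplx3, at -0.83 ± 0.37, were also highest in wild type replicates 2 and 3. Moxd1 was at -0.22 ± 0.18 and the G protein gene Gnb4 at 0.035 ± 0.086. Ntng2, a netrin relative on the cell surface, was at -0.30 ± 0.10 but was highest in wild type replicate 1, where Nr4a2 was low, and none of the 5 passed in edgeR. Their part in the Nr4a2 value was not tested.

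**Figure D2:**
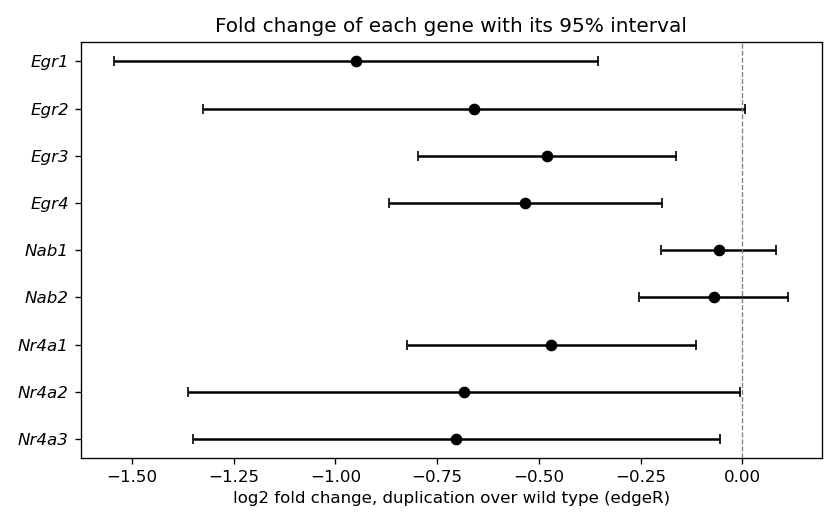
Log2 fold change of duplication over wild type for each gene (points) with its 95% interval (bars) from edgeR's quasi-likelihood fit over all 15398 genes. The Nab1 and Nab2 points lie next to 0 at -0.058 and -0.070, and the other 7 lie between -0.95 and -0.47.

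Set per exon length, which allows genes to be compared, Egr1 was the most abundant member on average. In CPM per kilobase of annotated exon, Egr1 was at 11.0 ± 3.5 in duplication and 21.2 ± 6.1 in wild type libraries (SD, n = 3 each). Nab1 was at 10.4 ± 0.2 and 10.8 ± 0.3, Nab2 at 7.71 ± 0.25 and 8.09 ± 0.56, and Nr4a1 at 7.45 ± 0.94 and 10.3 ± 2.4, in duplication and wild type. Egr4 followed at 3.99 and 5.73, Egr3 at 3.52 and 4.89, Nr4a3 at 2.54 and 4.09, Egr2 at 1.30 and 2.01 and Nr4a2 at 0.986 and 1.55 CPM per kilobase, again duplication before wild type. In duplication libraries the ranges of the neighbours Egr1 and Nab1, Nab2 and Nr4a1, and all neighbours from Egr4 down to Nr4a2 overlapped. In wild type libraries Egr1 did not overlap Nab1, Nab2 did not overlap Egr4 and Nr4a3 did not overlap Egr2, while the other neighbours overlapped. Among the 6 libraries, duplication replicate 1 was the one in which Egr1 was below Nab1, Nab2 and Nr4a1 in level per length.

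**Figure D3:**
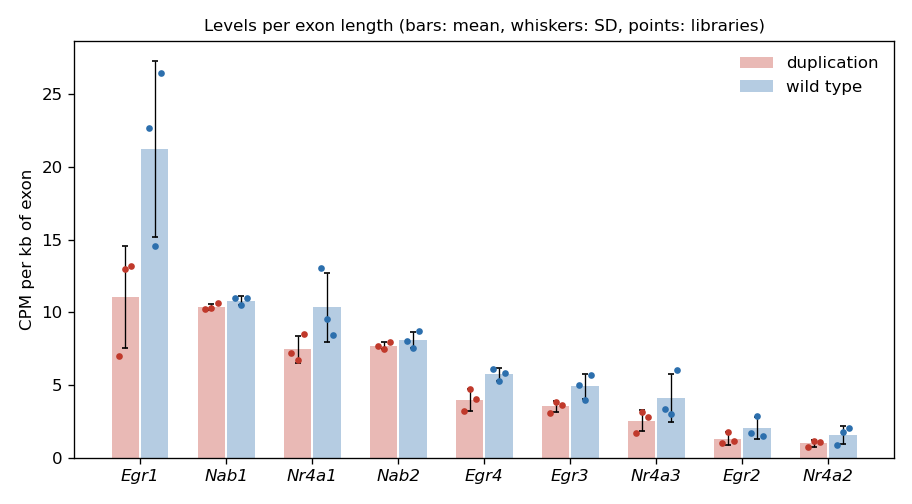
Level of each gene in CPM per kilobase of exon, duplication bars left of wild type bars, with the SD of 3 libraries and each library as a point. Egr1 averaged 11.0 in duplication and 21.2 in wild type libraries, and Nab1 10.4 and 10.8.

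The ratio of EGR to NAB level followed the EGR level, beside a nearly flat NAB level. The EGR sum includes Egr4, though the domain that Nab1 binds was given above for EGR1, EGR2 and EGR3. The 4 EGR genes together reached 14.2, 23.3 and 22.0 CPM per kilobase in duplication replicates 1 to 3, against 35.5, 26.7 and 39.4 in wild type replicates 1 to 3. Both NAB genes together were at 17.9, 17.8 and 18.6, against 19.0, 18.0 and 19.7. The ratio of summed EGR to summed NAB level was 0.795, 1.31 and 1.19 in the duplication libraries, against 1.87, 1.48 and 2.01 in the wild type libraries, so every duplication library had a lower ratio. Within the EGR family Egr1 made up 54.9% ± 5.5 of the level per length in duplication and 61.9% ± 6.5 in wild type libraries (SD, n = 3 each). Nr4a1 made up 68.1% ± 6.9 of the NR4A level in duplication and 64.6% ± 12.4 in wild type libraries. The ranges of both shares overlapped between the groups.

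The members did not share 1 pattern across libraries. Duplication replicate 1 was the lowest of the 6 libraries for 7 members, all but Nab2 and Nr4a1, and wild type replicate 3 the highest for 6, all but Egr2, Egr4 and Nr4a1. Among wild type libraries, replicate 2 was the lowest for Egr1, Egr3, Egr4, Nr4a3, Nab1 and Nab2, and the highest for Egr2. Npas4, the neuronal factor in the series title, and Fos, part of the AP-1 factor, resembled Egr2 in this. Npas4 was at 12.9, 17.5 and 15.0 CPM in the duplication libraries, against 23.8, 29.2 and 19.8 CPM in the wild type libraries. Fos was at 13.9, 17.9 and 16.8 CPM, against 25.3, 34.6 and 20.9 CPM. Both have wild type replicate 2 as their highest library.

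**Figure D4:**
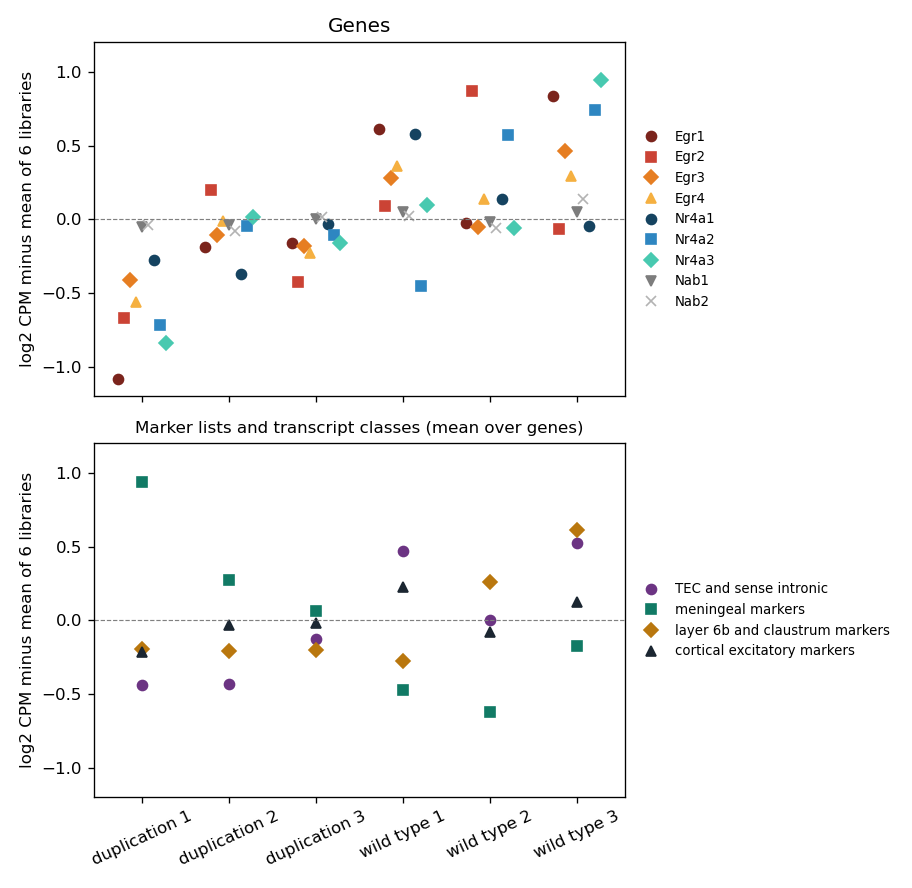
Top, log2 level of each gene in each library minus its mean over the 6 libraries; bottom, the same averaged over marker lists and over transcripts of the classes TEC and sense intronic. Egr1 was at -1.08 in duplication replicate 1 and 0.84 in wild type replicate 3, where TEC and sense intronic transcripts were at -0.44 and 0.53.

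Levels of other transcript classes and of markers differed between the groups, so they and genotype cannot be told apart. They moved with some of the members, such as Egr1, and not with all. Transcripts of the annotation classes TEC (unspliced EST clusters) and sense intronic, 292 genes, had mean log2 levels, relative to all 6 libraries, of -0.44, -0.43 and -0.12 in duplication replicates 1 to 3, against 0.47, -0.00042 and 0.53 in wild type replicates 1 to 3. Egr1 lay at -1.08, -0.19 and -0.16, against 0.62, -0.021 and 0.84. When edgeR took that level as a covariate, with 3 residual degrees of freedom, the log2 value of Egr1 was 0.075 ± 0.34 (SE). Egr3 was at 0.0085 ± 0.21, Nr4a3 at 0.16 ± 0.47, Nab1 at 0.037 ± 0.11 and Nab2 at 0.12 ± 0.15. Each of these was above 0 but smaller than its SE, so its sign was not determined. In the same fit Egr4 was at -0.32 ± 0.29, Nr4a1 at -0.20 ± 0.28, Nr4a2 at -0.74 ± 0.56 and Egr2 at -1.61 ± 0.40, and no gene passed.

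Meningeal markers also differed between the groups. All 14 were tested, none was at 0, and all 14 had a log2 fold change above 0 with a median of 0.86. In edgeR 0 of the 14 passed, as did 0% of all genes. Summed, they were at 53.3 to 100 CPM in duplication and 35.5 to 49.2 CPM in wild type libraries, highest in duplication replicate 1. The matrix genes Ogn and Mgp, with the smallest p among them, were at 1.92 ± 0.35 and 1.06 ± 0.22 on the log2 scale. With their level as a covariate in edgeR, Egr1 was at -0.56 ± 0.44 (SE), Egr3 at -0.45 ± 0.26 and Egr4 at -0.25 ± 0.25 on the log2 scale. Nr4a1 was at -0.23 ± 0.28, Nr4a2 at -0.34 ± 0.53, Nr4a3 at -0.58 ± 0.51 and Egr2 at 0.12 ± 0.47, and no gene passed. Within the libraries with Y-linked genes as the main sex signal, 1 per group, the log2 difference of duplication minus wild type was -1.70 for Egr1 and -0.86 for Nr4a1. Within those with Xist, 2 per group, it was -0.58 for Egr1 and -0.25 for Nr4a1. Both differences were below 0 for all 9 members, as values with no test, and the share over all genes was not counted.

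**Figure D5:**
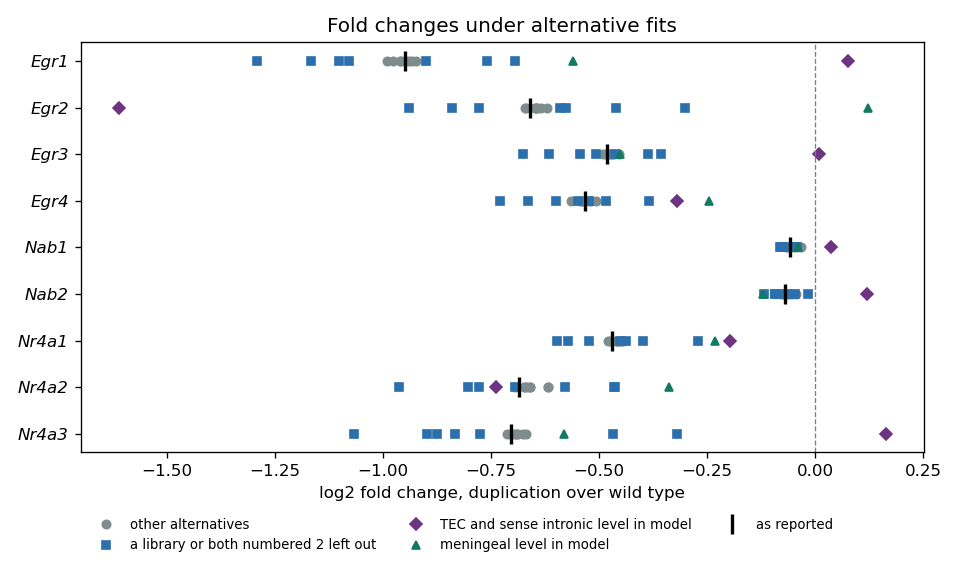
Log2 fold change of duplication over wild type for each gene as reported (bar) and under alternative fits (points). Leaving out libraries moved Egr1 between -1.29 and -0.69, while the covariate for TEC and sense intronic transcripts put it at 0.075 and Egr2 at -1.61.

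The genes whose levels ran most like Egr1 were not activity-induced genes of the list. Over the 6 libraries and 9534 genes with a mean of at least 10 CPM, the highest Pearson correlations of log2 CPM with Egr1 were 0.999 for Dtx4, 0.997 for Mamld1, 0.997 for Trip12, a ubiquitin ligase, 0.996 for Adcy3, an adenylyl cyclase, and 0.994 for Atp2b4, a calcium pump of the plasma membrane. Those with Nr4a1 were 0.995 for Rasl11b, 0.992 for Galntl6, 0.991 for Rtf1, a transcription elongation factor, 0.983 for Agap3 and 0.981 for Cep131. With 6 libraries and this many genes such values are a description, and the points share depth and the library features above. Atp2b4 had a log2 fold change of -0.62 and Mamld1 of -0.55, and the other 8 lay between -0.30 and -0.086.

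Other activity-induced genes were mixed. Of 40 listed genes 36 were tested, and 0 passed in edgeR in either direction, as did 0% of all genes. A log2 fold change below 0 was seen for 21 (58.3%, against 49% of all genes), and the median was -0.13. At an unadjusted edgeR p under 0.05, 8 of the 36 were lower and 1 was higher, against 12.2% and 7.05% of all genes. The 6 with the smallest p were Npas4 at -0.69 ± 0.16, Fos at -0.74 ± 0.18, the clock gene Per1 at -0.79 ± 0.21, the salt-inducible kinase Sik1 at -0.44 ± 0.13, the matrix gene Cyr61 at -0.77 ± 0.24 and the zinc finger gene Klf10 at 0.21 ± 0.068. Arc, a synaptic protein and described EGR target, was at 105, 93.5 and 112 CPM in duplication libraries, against 126, 138 and 100.5 CPM in wild type libraries, and the groups overlapped.

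The kinases and factors upstream of these genes numbered 26 tested genes with a median log2 fold change of -0.031. In edgeR 0 of the 26 passed, as did 0% of all genes. Mapk3, which encodes the kinase ERK1 and lies in the duplicated segment, was at 95.8, 126 and 91.9 CPM in duplication replicates 1 to 3, against 71.3, 73.5 and 64.1 CPM in wild type replicates 1 to 3. The groups did not overlap, and the log2 fold change was 0.59 ± 0.12 (edgeR adjusted p = 0.163). Next by p was the acetyltransferase gene Ep300 at -0.76 ± 0.20. The SRF coactivator gene Mkl1 at -0.50 ± 0.14 and the CREB-binding protein gene Crebbp at -0.77 ± 0.24 followed. The groups overlapped for Crebbp, and not for Ep300 and Mkl1.

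No partner or described target of the 2 families was called in edgeR, where 0% of the 15398 genes tested passed. The 23 tested genes of the duplicated segment also had 0 passing, so not being called says little about a gene. Among the NuRD complex, which NAB2 recruits for repression, 0 of 13 passed and the median was 0.014, with the histone chaperone gene Rbbp4 at 0.23 ± 0.057 and Mta1 at -0.47 ± 0.12. Of the retinoid X receptors, which can pair with NR4A1 and NR4A2, 0 of 3 passed. Rxra was at -0.20 ± 0.076, Rxrb at -0.030 ± 0.061 and Rxrg at 0.23 ± 0.14. Of 11 described EGR target genes, which include Nab1 and Nab2, 0 passed and the median was -0.070. Syn1, which encodes a synaptic vesicle protein, was at -1.02 ± 0.28, and Gabra4, which encodes a GABA-A receptor subunit, at 0.21 ± 0.068.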

How the data were processed

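Prefrontal cortex RNA of 3 duplication and 3 wild type libraries was extracted with Trizol and prepared with the stranded TruSeq kit and Ribo-Zero, per the labels' protocols. The authors deposited raw counts per gene, made with cutadapt, TopHat2 and HTSeq on mm10, as the submitters' processing notes list them without versions. The annotation and strand setting are not stated there. The deposited table has 45807 lines of counts and 45801 names, and each library's own table held the same values for the 45801 names. Names were joined to counts at offsets that rise from 0 to 6 in 6 steps, and names within 25 lines of a step and 25 names turned into date numbers were left out, which left 337 lines with 0.909% to 0.954% of a library's counts unnamed and outside library sizes. All 9 members lie at least 522 lines from a step, and in the lines around each, protein-coding names and counts correlated best at the offset used. This check used the names and counts that had fixed the offsets. No per-sample column was left unused.

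The test of duplication over wild type was edgeR 4.0.16's in R 4.3.3 (TMM factors, filterByExpr by group, quasi-likelihood F-test, Benjamini-Hochberg over 15398 genes, threshold 0.05), with a square root of common dispersion of 0.0951. Log2 CPM used a prior count of 2. Alternatives used DESeq2 1.42.0 and limma 3.58.1. On simulated counts with 200 genes changed 2-fold, the fit recovered 92.5% of them with 8 false calls. Those counts were drawn independently, without the shifts that many genes share within a library here, so the check does not cover such shifts. No molecular identifiers mark PCR copies, so intervals on counts cover counting error only. Positions, exon lengths and classes came from GENCODE M21 on the same build, which held 91.8% of used names, and promoter windows from RefSeq. Named beside the members were the genes with the smallest p of each list (6, 4 or 2 per list), Arc, which was chosen after its values were seen, Npas4, Fos, Mapk3, the retinoid X receptors and the 5 genes most correlated with Egr1 and with Nr4a1. The members, lists and tests were chosen with earlier results of these data known.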

Additional observations from a re-analysis of the deposited data

How the results depend on the processing

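Of 153 fits of single members under alternatives with re-aligned names, 136 kept their direction and their side of the threshold, 11 passed it as lower and 6 reversed. The count of members called over all genes was 0 as reported and 5 without a filter on low counts, and 0 to 3 when 1 library was left out, with 3 when wild type replicate 2 was left out and 3 when both libraries numbered 2 were. The count over all genes was 0 as reported, 285 with DESeq2, 1016 without a filter, 1320 without both libraries numbered 2, 7 with the replicate number as a block, and 0 to 2406 when 1 library was left out, the highest without wild type replicate 2. With TEC and sense intronic transcripts as a covariate, Egr1 turned to 0.075, Egr3 to 0.0085, Nab1 to 0.037, Nab2 to 0.12 and Nr4a3 to 0.16. With the meningeal level Egr2 turned to 0.12. Each of these 6 values was smaller than its SE, so the sign was not determined, and the cause was not tested. With names as deposited Egr1 was at 0.049 and Egr4 at 0.054, since those lines hold the counts of other genes, and Nr4a2 and Nr4a3 had 0 counts and could not be tested. The labels do not say what a replicate number stands for, and the numbers were not taken to pair the libraries: deviations from the group means correlated at 0.102, 0.0629 and 0.311 for numbers 1 to 3, not all above 0.1, and not every library correlated best with its own number. Same-numbered libraries did share their class of sex-linked counts. With the replicate block no member passed over all genes. At an unadjusted edgeR p under 0.05 that fit gave 7 lower members, all but Nab1 and Nab2, with the share over all genes not counted. In it Egr2 was at -0.62 ± 0.15 and Nr4a2 at -0.62 ± 0.16 (SE), against errors of 0.29 and 0.30 without the block. Both were lower in duplication within all 3 numbers, as were Egr1, Egr3, Egr4, Nab1 and Nab2. Nr4a1 was not, at a log2 difference of 0.014 in number 3, nor was Nr4a3, at 0.077 in number 2. The share over all genes was not counted. The values within sex classes were added after seeing the data. Members with few counts, Egr2 and Nr4a2, are limited by depth as well as by the spread between libraries.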
